A study of Homo sapiens with 8 samples.

Results

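The 10 genes described here encode death receptors of the tumour necrosis factor (TNF) family, the adaptors that bind them, the caspase they activate and the inhibitors that hold the caspase or its activation back. They are TNFRSF10A, TNFRSF10B, TNFRSF10D, TNFRSF1A, FADD, TRADD, CASP8, CFLAR, BIRC2 and BIRC3, chosen by symbol as a group of related function with earlier results of these data known, and all 10 were found among the 19046 genes tested. Gene expression was measured in A549, an established human lung carcinoma cell line, on 8 Agilent whole human genome arrays with a single dye. One series of 4 arrays held vehicle control cells and cells given 1.25, 5 or 20 μg/mL EEDS, the ethanol extract of D. sophia seeds. The other series held its own vehicle control and cells given 3.75, 15 or 60 nM helveticoside, a cardiac glycoside. All cells were of the same line with no genetic change named. The sample labels give an exposure of 48 h, whereas the paper's methods describe a 24 h exposure. RNA from 3 cultures was pooled for each array and each dose had 1 array, so there was no replicate of a dose and no p-value for a single dose.

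TRAIL and TNF bind receptors that carry a death domain in the cytoplasm. TRAIL receptors recruit FADD, which gathers caspase-8 for its activation, whereas the TNF receptor recruits TRADD and can signal either to NF-kappa B and survival or to a second complex that holds FADD and caspase-8. CFLAR (c-FLIP) resembles caspase-8 and competes with it at FADD, and the cellular inhibitor of apoptosis proteins (IAPs) are ubiquitin ligases that keep the TNF receptor complex on the survival side. A549 cells are commonly used to study the response of lung carcinoma to TRAIL.

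The 5 epithelial markers and the 4 genes known to be high in A549 were well above background on all 8 arrays. Of 6 markers of blood, endothelial and fibroblast cells, 4 were not well above background on any array, whereas PTPRC and CD14 were on all 8. The summed level of these 6, nearly all from CD14, ranged from 9.65 to 11.74 on the log2 scale over the EEDS series and from 9.54 to 11.85 over the helveticoside series. CD14 was 11.46, 11.67, 9.43 and 9.89 over the EEDS series and 11.29, 11.76, 9.96 and 9.01 over the helveticoside series, and its trends did not pass (adjusted p = 0.168 and 0.122). Of the epithelial markers, KRT8, KRT18, KRT19 and CDH1 fell under EEDS and KRT18, KRT19 and CDH1 under helveticoside, and the summed level of the 5 ranged from 18.26 to 18.92 and from 18.00 to 18.64. CDH1, the gene of E-cadherin, had top-dose log2 ratios of -2.70 and -2.71 (adjusted p = 0.0364 and 0.0452). The summed level of the 4 genes high in A549 ranged from 18.52 to 19.58 and from 18.26 to 19.56, and none of their trends passed. The part of these markers in the results below was not tested. Probe spots had a median signal of 182 to 278 and a median local background of 27 to 34, and none was saturated. Precision is limited by how few arrays there were. Values of the 10 genes came from probes well above background on all 8 arrays. Levels are given as log2 of the quantile-normalized signal and differences as log2 ratios to the vehicle control of the same series. In bulk RNA, fewer cells of a kind and less RNA per cell cannot be told apart.

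The main pattern was a rise of 6 of the 10 genes and a fall of TRADD. At 20 μg/mL EEDS, the 3 TRAIL receptors, CFLAR and both IAPs were over 2-fold higher than the control, and TRADD and TNFRSF1A were over 2-fold lower. At 60 nM helveticoside, the same counts of 6 higher and 2 lower were obtained for the same genes. Among all genes tested, 13.3% were over 2-fold higher and 14.5% over 2-fold lower at 20 μg/mL EEDS, and 10.8% and 12.8% at 60 nM helveticoside. The median log2 ratio of the 10 genes at the top dose was 1.90 for EEDS and 1.49 for helveticoside, beside 0.02 and -0.00388 over all genes.

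A dose trend was fitted with limma to all 8 arrays as a slope per dose step, where the vehicle control was step 0 and the top dose step 3. The scatter of the arrays about the trend lines stood in for replicates. The same 6 genes rose under both agents at an adjusted p under 0.05, and TRADD fell under both. Over all genes, 7.27% had a rising and 7.85% a falling trend under EEDS, and 5.48% and 5.8% under helveticoside. The trends of these 7 genes kept their direction under all 13 alternative settings, but none passed the threshold when the arrays of 1 series were fitted alone or when 1 dose was left out. In those fits 0 of all genes passed, and 6 to 8 of the 10 had an unadjusted p under 0.05 (limma), beside 17.1% to 28.4% of all genes. The 6 rising genes were also higher at each successive dose in both series, which 6.97% of all genes were, and TRADD was lower at each, which 6.6% were.

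**Figure D1:**
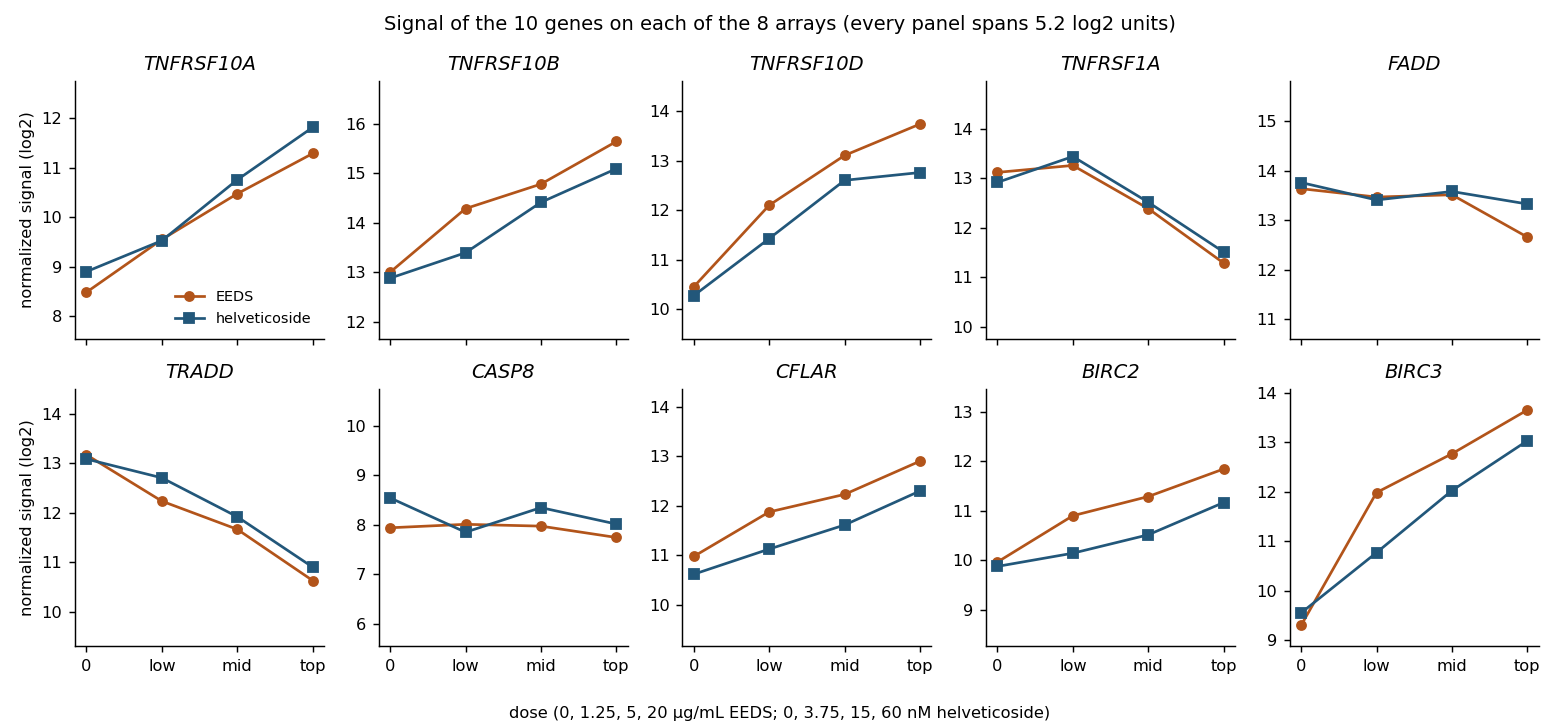
Normalized signal on the log2 scale of each of the 10 genes on the 8 arrays, against the dose step, with circles for EEDS and squares for helveticoside. Each panel spans the same number of log2 units. BIRC3 climbed from 9.30 to 13.65 over the EEDS series, TRADD dropped from 13.17 to 10.63, and CASP8 stayed between 7.74 and 8.54 over all arrays.

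TNFRSF10B encodes DR5, a receptor that passes on the TRAIL death signal. Its level was 13.00 without EEDS and rose to 14.29 at 1.25 μg/mL, 14.78 at 5 μg/mL and 15.64 at 20 μg/mL. In the helveticoside series it was 12.89 on the control and 13.40, 14.42 and 15.10 at 3.75, 15 and 60 nM. Every treated array was above both controls, and the level at each dose was above that at the dose before it. The top-dose signal was 6.23 times the control for EEDS and 4.63 times for helveticoside. The slope was 0.84 ± 0.08 (SE) log2 units per step under EEDS, with an adjusted p of 0.0132, and 0.76 ± 0.08 under helveticoside, with an adjusted p of 0.0165.

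TNFRSF10A encodes DR4, the other TRAIL receptor with a complete death domain. On the EEDS arrays its level was 8.49 without the extract and 9.55, 10.48 and 11.29 with increasing dose. On the helveticoside arrays it was 8.90 without the compound and 9.53, 10.76 and 11.81 with increasing dose. All 6 treated arrays were above both controls, although these differed by 0.42 between the series. The top-dose signal was 6.97 times the control for EEDS and 7.53 times for helveticoside. Its slopes were 0.93 ± 0.07 (SE) under EEDS (adjusted p = 0.0129) and 0.997 ± 0.07 under helveticoside (adjusted p = 0.0165).

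TNFRSF10D encodes a decoy receptor that binds TRAIL but carries a truncated death domain. Its level rose from 10.46 to 12.10, 13.11 and 13.74 over the EEDS doses. Under helveticoside it went from 10.28 to 11.43, 12.61 and 12.77, so that the last step added little. All 6 treated arrays were above both controls for the decoy receptor, as for the receptors that signal. The top-dose log2 ratios were 3.29 for EEDS and 2.48 for helveticoside, beside 2.64 and 2.21 for TNFRSF10B. The slopes were 1.09 ± 0.15 (SE) with an adjusted p of 0.0165 under EEDS and 0.86 ± 0.15 with an adjusted p of 0.0284 under helveticoside. With the dose entered as its square root, the trend under helveticoside no longer passed (adjusted p = 0.0924). In the gene annotation, TNFRSF10B, TNFRSF10C, TNFRSF10D and TNFRSF10A follow one another as protein-coding neighbours.

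TNFRSF1A encodes the main receptor for TNF, and its level did not move in one direction over the doses. Its level was 13.12 on the EEDS control, 13.26 at 1.25 μg/mL, 12.39 at 5 μg/mL and 11.29 at 20 μg/mL. In the helveticoside series it was 12.92 on the control, then 13.44, 12.52 and 11.51. In both series the lowest dose lay above the control and the 2 higher doses below it. The log2 ratios at the lowest dose were 0.14 for EEDS and 0.52 for helveticoside, from 1 array each. The SD between the 2 vehicle controls, over genes well above background on both, was 0.50. The probe was printed in 10 spots on each array, whose log2 signals before normalization between arrays had an SD of 0.04 to 0.07 within an array, a measure of technical spread only. The top-dose log2 ratio was -1.83 for EEDS and -1.41 for helveticoside. A straight line over the steps had a slope of -0.64 ± 0.20 (SE) under EEDS (adjusted p = 0.0909) and -0.51 ± 0.20 under helveticoside (adjusted p = 0.161), and neither passed. The slope under EEDS passed under 5 of 13 alternatives, with adjusted p down to 0.029, whereas that under helveticoside passed under none.

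**Figure D2:**
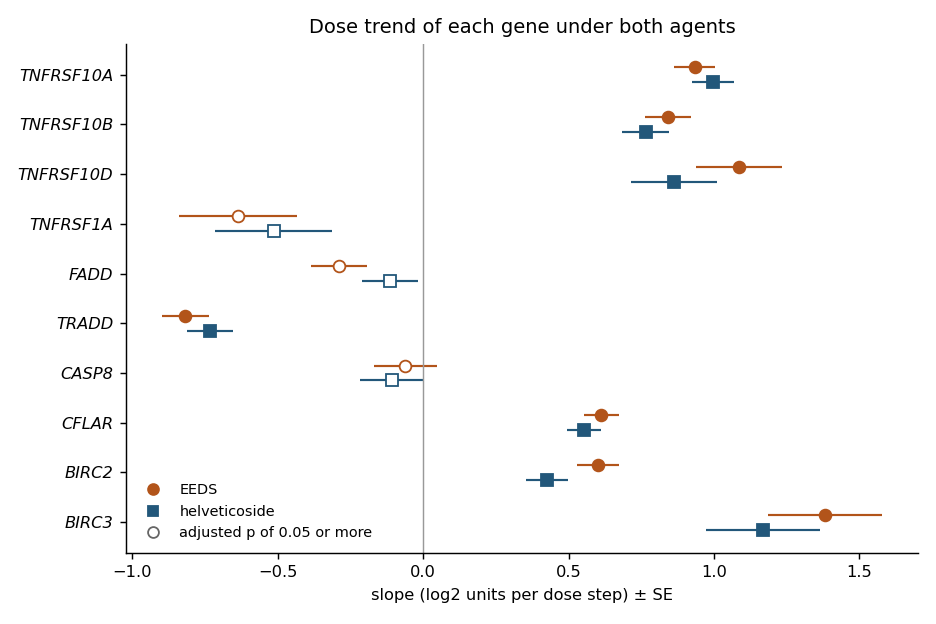
Slope of the log2 signal per dose step (x axis) for each gene, with circles for EEDS and squares for helveticoside. Bars are ± 1 SE of the fit over the 8 arrays, and open symbols did not pass an adjusted p of 0.05. TNFRSF1A, FADD and CASP8 have open symbols for both agents, and the other 7 genes have filled ones.

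TRADD encodes the adaptor that binds the death domain of the TNF receptor, and it was the only one of the 10 genes with a falling trend that passed. Its level was 13.17 on the EEDS control and 12.24, 11.67 and 10.63 at the 3 doses. Over the helveticoside series it was 13.09, 12.71, 11.92 and 10.90. The controls differed by 0.09, and all 6 treated arrays were below both of them. The signal fell to a level 5.81-fold below the control at 20 μg/mL EEDS and 4.54-fold below it at 60 nM helveticoside. Its slopes were -0.82 ± 0.08 (SE) with an adjusted p of 0.0132 and -0.73 ± 0.08 with an adjusted p of 0.0167.

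FADD, the adaptor of the TRAIL receptors, had levels of 13.63, 13.46, 13.51 and 12.66 over the EEDS series and 13.76, 13.41, 13.58 and 13.32 over the helveticoside series. The lowest array was that of 20 μg/mL EEDS, with a log2 ratio of -0.98. The value at 60 nM helveticoside was -0.43, which lies within the SD of 0.50 between the 2 vehicle controls over the 12390 genes well above background on both. The slopes were -0.29 ± 0.10 (SE, adjusted p = 0.102) and -0.11 ± 0.10 (adjusted p = 0.533). With the square root of the dose, the trend under EEDS passed (adjusted p = 0.0442).

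CASP8 encodes caspase-8, the initiator caspase that FADD recruits. Its levels were 7.94, 8.01, 7.97 and 7.74 over the EEDS series and 8.54, 7.85, 8.35 and 8.01 over the helveticoside series. The difference between the 2 vehicle controls, 0.60, was larger than any change within the EEDS series. The slopes of -0.06 ± 0.11 (SE, adjusted p = 0.82) and -0.11 ± 0.11 (adjusted p = 0.614) did not pass under any of the 13 alternatives. The log2 ratio at 60 nM helveticoside was -0.53 against its own control and 0.08 against the control of the EEDS series.

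CFLAR encodes c-FLIP, the inhibitor that stands in for caspase-8 at FADD. Its brighter probe had levels of 10.98, 11.88, 12.23 and 12.90 over the EEDS series and 10.62, 11.13, 11.61 and 12.30 over the helveticoside series. All 6 treated arrays were above both controls, and the top-dose signal was 3.80 times the control for EEDS and 3.21 times for helveticoside. The slopes were 0.61 ± 0.06 (SE, adjusted p = 0.0132) and 0.55 ± 0.06 (adjusted p = 0.0165). CFLAR was the only one of the 10 genes with a second probe, which was designed to another transcript record. That probe gave 6.83, 7.13, 7.37 and 7.66 over the EEDS series and 7.00, 6.48, 7.51 and 7.98 over the helveticoside series. Its top-dose log2 ratios of 0.83 and 0.99 had the same direction as the 1.92 and 1.68 of the brighter probe, but they were smaller, and at 3.75 nM helveticoside the probes went opposite ways (-0.52 against 0.51).

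BIRC3 encodes cIAP2, an IAP whose gene is a well-known target of NF-kappa B, and it had the highest top-dose ratio of the 10 genes. Its level was 9.30 on the EEDS control and 11.98, 12.76 and 13.65 at the 3 doses. In the helveticoside series it was 9.55 on the control and 10.77, 12.02 and 13.03 at the 3 doses. The controls differed by 0.25, and the lowest treated array was above both. At the top dose the signal was 20.4 times the control for EEDS and 11.1 times for helveticoside, which placed BIRC3 at rank 31 and rank 86 from the highest rise among 19046 genes. The slope was 1.38 ± 0.20 (SE) with an adjusted p of 0.0175 under EEDS and 1.17 ± 0.20 with an adjusted p of 0.0279 under helveticoside. With the square root of the dose, the trend under helveticoside no longer passed (adjusted p = 0.0634).

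BIRC2 encodes cIAP1, the closest relative of cIAP2, and is the next protein-coding gene after BIRC3 in the annotation. Its level was 9.96 on the EEDS control and 10.90, 11.29 and 11.84 at the 3 doses. In the helveticoside series it was 9.88, 10.14, 10.52 and 11.17. Every treated array was again above both controls, but the rise was smaller than that of BIRC3 on all 6. The top-dose signal was 3.68 times the control for EEDS and 2.45 times for helveticoside. The slopes were 0.60 ± 0.07 (SE, adjusted p = 0.0144) and 0.42 ± 0.07 (adjusted p = 0.0282). Of all pairs of the 10 genes, CFLAR and BIRC2 had the closest values, with a Euclidean distance of 0.59 over their 6 log2 ratios. BIRC2 and BIRC3 were 4.77 apart. This distance counts the size of a change as well as its course. Over the 8 arrays, the levels of BIRC2 and BIRC3 had a Pearson r of 0.95, beside 0.99 for CFLAR and BIRC2.

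The start regions of BIRC3 and BIRC2 are shown because these neighbours rose by different amounts. The sequences are from RefSeq on GRCh38.p14, plus strand, from 250 bases before the annotated start, and lie at chr11:102317234-102317508 for BIRC3 and chr11:102346964-102347238 for BIRC2. Capitals mark matches to the kappa B consensus and to TGACG, the core of the cyclic AMP response element, on either strand.
BIRC3: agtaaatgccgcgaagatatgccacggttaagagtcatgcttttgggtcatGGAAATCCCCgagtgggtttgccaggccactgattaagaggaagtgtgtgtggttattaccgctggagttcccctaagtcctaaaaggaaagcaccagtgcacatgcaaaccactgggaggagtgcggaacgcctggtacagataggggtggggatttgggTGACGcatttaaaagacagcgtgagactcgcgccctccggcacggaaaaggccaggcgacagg
BIRC2: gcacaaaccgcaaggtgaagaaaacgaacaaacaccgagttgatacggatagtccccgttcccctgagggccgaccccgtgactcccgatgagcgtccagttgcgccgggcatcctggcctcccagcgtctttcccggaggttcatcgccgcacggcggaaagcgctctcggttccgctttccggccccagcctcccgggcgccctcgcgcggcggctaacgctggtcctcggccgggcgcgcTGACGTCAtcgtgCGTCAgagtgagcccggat
In BIRC3 the kappa B match starts at position -199 and the TGACG match at position -38, counted with the start as 0. In BIRC2 the TGACG matches start at positions -7, -4 and 6, of which the first 2 overlap on opposite strands. The windows searched ran from 250 bases before to 50 after the RefSeq start. They held 6 of the 10 genes with 12 starts (BIRC2, BIRC3, CASP8, CFLAR, FADD and TNFRSF1A). The chromosome of TNFRSF10A, TNFRSF10B and TNFRSF10D was left out of this search but kept in the share of all windows, and TRADD had no window. The kappa B consensus was found in 1 of the 12 windows, that of BIRC3, and in 7.73% of all 35116 windows. TGACG was found in 3 of the 12, of BIRC2 and BIRC3, and in 24.6% of all windows. For both, the 12 windows were near the share of all windows. TGANTCA, the AP-1 element, was found in 4 of the 12, of CASP8, CFLAR and FADD, and in 7.71% of all windows. TGATGNAA, an ATF4-type element, was found in 0 of the 12 and in 3.62% of all windows. A match describes the letters only.

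**Figure D3:**
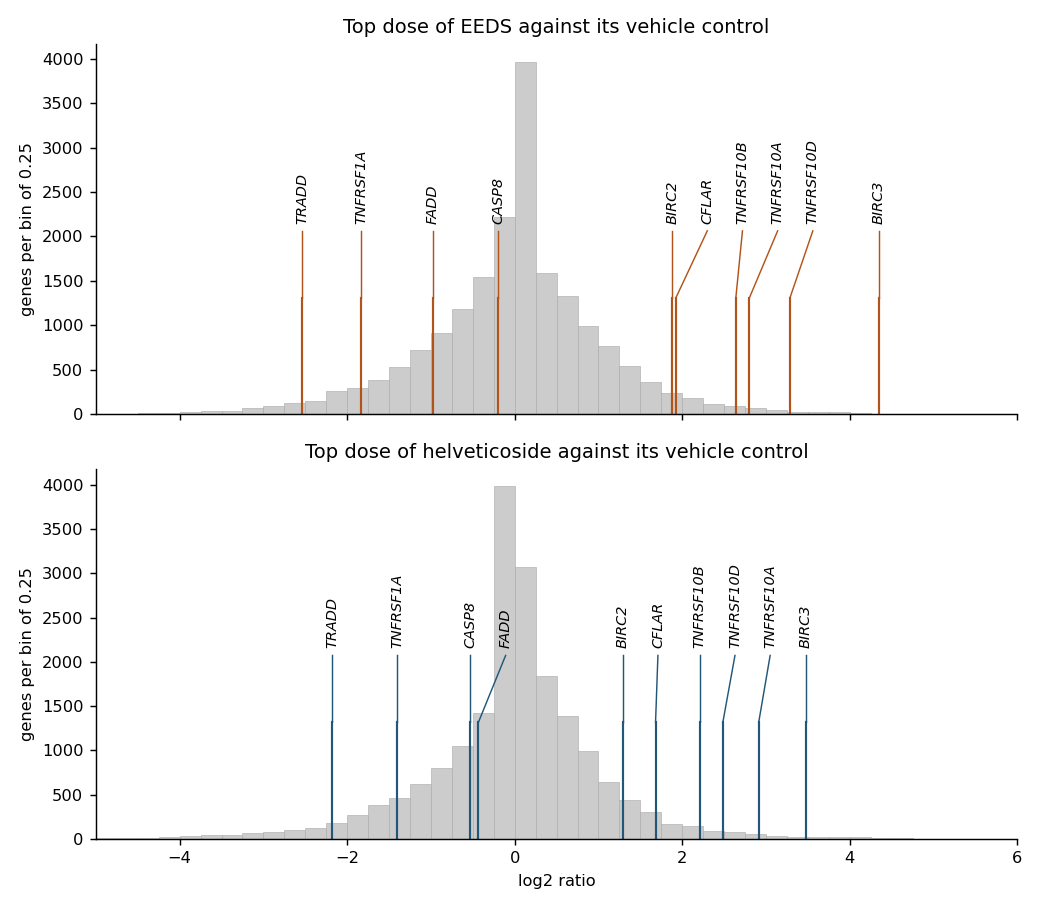
Number of genes (y axis) by log2 ratio of the top dose to the vehicle control (x axis, bins of 0.25) over all 19046 genes, with the 10 genes marked by lines. BIRC3 lies farthest to the right in both panels, at 4.35 for EEDS and 3.48 for helveticoside, and TRADD farthest to the left of the 10, at -2.54 and -2.18.

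The 2 agents were set side by side for the size of the effect. No difference of slopes between helveticoside and EEDS passed the test. All adjusted p of the limma contrast were 1 for the 10 genes, none of the 10 genes had an unadjusted p under 0.05, and none of the 19046 genes passed, although 525 had an unadjusted p under 0.05. The smallest unadjusted p of the 10 genes was 0.135 (limma), for BIRC2, whose slope under helveticoside minus that under EEDS was -0.18 with a 95% interval of -0.43 to 0.08. For BIRC3 the difference was -0.21 with an interval of -0.91 to 0.48, and for TNFRSF10A it was 0.06 with an interval of -0.19 to 0.31. Agent and series cannot be told apart in this design, and the doses of an extract and a pure compound are not matched.

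The arrays of the lower doses showed at how low a dose each gene changed. At 1.25 μg/mL EEDS, 4 of the 10 genes (the 3 TRAIL receptors and BIRC3) were already over 2-fold higher, beside 4.22% of all genes. At 3.75 nM helveticoside, TNFRSF10D and BIRC3 were, beside 3.38% of all genes. No gene of the 10 was over 2-fold lower at either lowest dose. At 5 μg/mL EEDS, 6 genes were over 2-fold higher and TRADD was lower, beside 7.33% and 8.47% of all genes. At 15 nM helveticoside, 4 were higher and TRADD was lower, beside 7.08% and 8.06% of all genes. Of the 7 genes with a trend, the lowest dose of EEDS gave 36.8% (TRADD) to 61.7% (BIRC3) of the top-dose log2 ratio. The lowest dose of helveticoside gave 17.4% (TRADD) to 46.3% (TNFRSF10D).

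**Figure D4:**
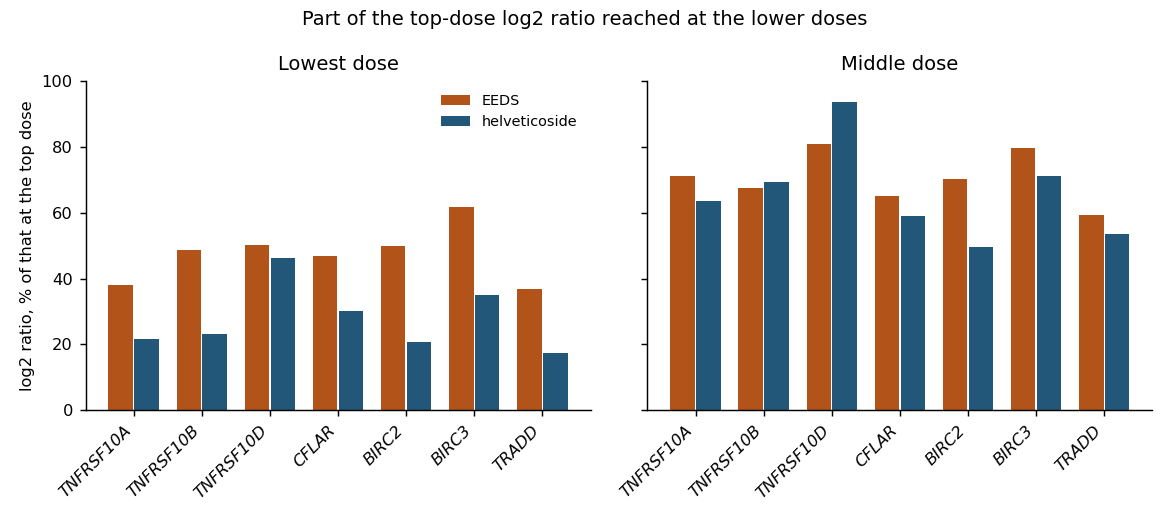
Log2 ratio at the lowest dose (left) and the middle dose (right) as a percentage of the log2 ratio at the top dose, for the 7 genes with a trend and both agents, from 1 array per dose. TNFRSF10D had reached 93.7% at 15 nM helveticoside, the highest bar, and TRADD at 3.75 nM helveticoside had the lowest bar at 17.4%.

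The other genes of the pathway were taken from 7 lists. Trend counts below stand beside 7.27% of all genes rising and 7.85% falling under EEDS, and 5.48% and 5.8% under helveticoside. Of 9 other receptors of the TNF family, only 4 of which were well above background on all 8 arrays, 2 rose and 1 fell under each agent. The risers were FAS and TNFRSF12A under both. FAS had top-dose log2 ratios of 1.87 and 2.04 (limma, adjusted p = 0.0355 and 0.0361). TNFRSF10C had 2.27 for EEDS and was not well above background on the helveticoside control. Its trends did not pass (limma, adjusted p = 0.096 and 0.0673). TNFRSF12A, the receptor for TWEAK, had a top-dose log2 ratio of 3.89 for EEDS and 3.06 for helveticoside (adjusted p = 0.0269 and 0.0383), and TNFRSF21, known as DR6, had -1.08 and -1.33 (adjusted p = 0.0442 and 0.041). Of 6 death ligands, none passed in either direction, but only 2 of the 6 were well above background on all 8 arrays. TNFSF10 (the gene of TRAIL), FASLG, TNF and LTA were not well above background on either vehicle control. Of these, only TNF was so at the top doses. TNFSF12, the gene of TWEAK, had log2 ratios of -1.12 and -1.07.

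Of 15 other adaptors and proteins of the receptor complexes, 1 rose under each agent, a count near the share of all genes. The gene that rose was TRAF2, which joins TRADD to the IAPs, with log2 ratios of 1.60 and 1.17 (limma, adjusted p = 0.019 and 0.0318). TRAF1 had a larger log2 ratio of 3.66 for EEDS, but it was not well above background on either vehicle control. Its trends did not pass (limma, adjusted p = 0.0966 and 0.275). Of 9 other caspases and effectors, 2 fell under EEDS and none under helveticoside. CASP6 had log2 ratios of -2.11 and -1.78 (adjusted p = 0.0338 and 0.0511). Of 9 other IAPs and IAP antagonists, 1 rose under EEDS and none under helveticoside, beside 7.27% and 5.48% of all genes. The gene that rose was BIRC5, the gene of survivin, with log2 ratios of 0.91 and 0.68 (limma, adjusted p = 0.0458 and 0.0943). The median log2 ratio of this list was 0.10 for EEDS and 0.11 for helveticoside, beside 0.02 and -0.00388 over all genes. Of its 9 genes, 6 were well above background on all 8 arrays.

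Of 15 genes of the ubiquitin and kinase branch of TNF signaling, 3 rose and 2 fell under EEDS, and 1 rose and 2 fell under helveticoside. MAP3K14 encodes the NF-kappa B-inducing kinase, which cIAP1, cIAP2 and TRAF2 keep low at the protein level. Its log2 ratios were 3.77 and 2.99 (adjusted p = 0.0224 and 0.0352). TNFAIP3, which encodes the ubiquitin-editing enzyme A20, had 4.56 for EEDS (adjusted p = 0.0303). In the helveticoside control its probe was not well above background, and the top-dose signal was at least 9.61-fold higher (adjusted p = 0.0596, which did not pass). RNF31, a subunit of the linear ubiquitin ligase, had -1.49 and -1.12 (adjusted p = 0.014 and 0.0252).

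Of 12 measured NF-kappa B targets, 8 rose and none fell under EEDS, and 5 rose and none fell under helveticoside. Among all genes, 7.27% rose under EEDS and 5.48% under helveticoside. The median top-dose log2 ratio of the 12 targets was 2.39 for EEDS and 1.62 for helveticoside, beside 0.02 and -0.00388 over all genes. CXCL8, the chemokine interleukin-8, had 5.52 for EEDS (adjusted p = 0.0134), and under helveticoside, where the control was not well above background, it was at least 54.2-fold higher (adjusted p = 0.0165). Such bounds use the lowest signal well above background on the control array. RELB, a subunit of NF-kappa B, was 8.01 and 6.59 times its controls (adjusted p = 0.00721 and 0.0147), and BCL3 had log2 ratios of -0.31 and -0.34 (adjusted p = 0.487 and 0.415). The list was tested gene by gene only, and whether BIRC3 moved because of NF-kappa B was not tested.

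The genes whose 6 log2 ratios lay closest to those of 4 of the genes were searched among 11498 genes, those with a probe called well above background on each of the 8 arrays. For TNFRSF10B they were ROR1, MAFK and LARP1B, at Euclidean distances of 0.23, 0.30 and 0.32. For BIRC3 the nearest were EREG, LSMEM1 and AOC3, and they lay much farther off, at 0.88, 1.11 and 1.16. For TRADD they were MPI, NMRAL1 and RNFT2, at 0.24, 0.26 and 0.30, and for CASP8 they were DRC4, PAPOLA and PCM1, at 0.15, 0.27 and 0.35.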

How the data were processed

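The authors deposited, for each array, the scanner software's intensity per spot (processed, median and local background signals) with its calls of outlier and well-above-background spots, and a table of quantile-normalized intensity on a linear scale, which served as an alternative. Outlier spots were left out here, spots of a probe were averaged, and the processed signal of the 8 arrays was quantile-normalized across arrays and log2-transformed. Probes were named through their RefSeq accessions (GRCh38.p14). For 4797 genes with several probes, the brightest was used. Trends were fitted with limma 3.58.1 (R 4.3.3, trend and robust estimation, an intercept and slope per series, 4 residual degrees of freedom), with Benjamini-Hochberg adjustment over 19046 genes. On simulated EEDS data with 200 changed genes among 19046, 106 were called, 100 of them changed. It found 65% of slopes of 1 and 35% of slopes of 0.5. The simulated scatter was independent between genes and arrays, and no gene had a helveticoside slope. Far fewer genes were changed than were called under EEDS in the data, so these rates need not hold for the reported fit. Genes, lists and tests were chosen with earlier results of these data known. All 10 genes, the largest rise and fall per list and agent among genes that were well above background with and without the top dose, and the 3 nearest genes of 4 members are named. Some further genes of the receptor, ligand and adaptor lists are named too. One named gene is not reported here. Nothing states that the 3 pooled cultures were independent, and p-values measure only the scatter of arrays about the trend lines.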

Additional observations from a re-analysis of the deposited data

How the results depend on the processing

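The counts over 2-fold at the top dose were 8 for EEDS and 8 for helveticoside, and 8 to 9 and 6 to 8 under the 10 alternatives of scaling, control and threshold. The 7 trends that passed did so under 9 of 13 alternatives for both agents, except TNFRSF10D and BIRC3 under helveticoside, which did under 8. Fitting each series by itself, or leaving out the lowest, the middle or the top dose of both, meant that 0 of the 10 genes passed under either agent with limma. At an unadjusted p under 0.05 these fits held 7 to 8 genes for EEDS and 6 to 7 for helveticoside, beside 19.6% to 28.4% and 17.1% to 25.9% of all genes, the adjusted p of the 7 genes ran from 0.0727 to 0.19 and from 0.0952 to 0.296, and all kept their direction. These fits have fewer arrays and fewer residual degrees of freedom. Scaling to the 75th percentile moved the median of all genes at the top dose to -0.36 for EEDS and -0.18 for helveticoside, and relative to it FADD at 60 nM helveticoside was 0.09, against -0.43 in the reported values, whereas no other gene changed direction. With all probes averaged, CFLAR at 20 μg/mL EEDS was 1.38 in place of 1.92, and against the control of the other series CASP8 was -0.80 for EEDS and 0.08 for helveticoside. No paired analysis was possible because each group had 1 array.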
